A study of Bombyx mori with 3 samples.

Results

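Alcohol dehydrogenases of the silkworm midgut were followed through 17 array probes whose description or gene description contains the words alcohol dehydrogenase. Of these, 7 carried the authors' brightness mark on all 3 arrays and are the members described here, out of 3964 gene probes with that mark throughout and 23229 gene probes in all. The mark is given to a spot whose brighter channel reached an intensity of 400, with a second level at 1500. The members were thus chosen by name and by brightness, not by the ratio between treated and control RNA. One member, sw01679, is also named in the choice itself, made when its low ratio was already known, so its difference is not independent evidence.

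The larvae of Bombyx mori were of the P50 strain, in the fifth larval instar, and ate mulberry leaves. Leaves of the treated group had been dipped for 1 min in phoxim at 4 µg/mL, and those of the control group in water. Phoxim is an organophosphate insecticide that inhibits acetylcholinesterase. Feeding started on day 3 of the instar and midguts were dissected 24 h later, with 30 larvae per experiment. Each of 3 arrays, called biological replicates by the submitters, compared 1 treated with 1 control RNA in 2 colours. No transgene or mutation is named for either group.

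The enzymes called alcohol dehydrogenase oxidise alcohols to aldehydes or ketones, or run the reverse reaction, with a nicotinamide cofactor. The name covers protein families of separate origin. Medium-chain enzymes hold zinc, and their class III members oxidise the adduct of formaldehyde and glutathione. The enzyme by which Drosophila handles dietary ethanol is a short-chain dehydrogenase without metal. Iron-containing enzymes form a further family, whose mammalian member is a mitochondrial transhydrogenase of hydroxy acids and oxo acids. In an insect gut such enzymes meet alcohols and aldehydes from food and from the animal's own metabolism.

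The 7 members represent these families unevenly and by similarity to other species. The probe sw04344 (LOC733095) matched a class III alcohol dehydrogenase of the fish Oryzias latipes, and its function terms name zinc binding. The probes sw02561 and sw09735 matched iron-containing alcohol dehydrogenase 1 of rat and of cattle. The other 4 matched honeybee proteins described as putative alcohol dehydrogenase: sw22670, sw22687 and sw13775 (Adh) matched 1 of them and sw01679 matched another. The function terms of sw01679 are oxidoreductase activity and ATP binding, and the files do not state to which family the honeybee proteins belong. Of the 7 members, 2 had a gene identifier, and both identifiers were found in the reference gene table.

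Some members share a source and are not independent of one another. The probes sw22670 and sw22687 were assigned to the same 2 gene models and the same 4 expressed sequence tags. The probes sw02561 and sw09735 shared their 1 tag. By shared models and tags the 7 probes reduced to 5 groups. Probe sequences of the 17 probes were not in the columns used here, so cross-hybridisation between similar transcripts was not tested.

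Brightness separated the 17 probes into distant sets. All 7 members carried the second mark on all 3 arrays, and the lowest brighter-channel intensity among them was 2426, for sw04344 on replicate 3. All 7 were above the 95th percentile of the negative control spots in both channels of all 3 arrays. The other 10 probes carried no mark on any array. The nearest of them, sw12416, matched to alcohol dehydrogenase 1 of the fruit fly Ceratitis capitata, read 317, 335 and 199 in phoxim and 202, 208 and 304 in control on replicates 1, 2 and 3. Of the 10, 8 never exceeded the negative controls, and none exceeded them on all 3 arrays in either group. The levels of those 8 were not detectable with this array, which does not show that the transcripts were absent. The others were sw12416, above the negative controls in phoxim on replicates 1 and 3 and in control on replicate 2, and sw04576, above them in phoxim on replicate 3. By the headers, each of these readings was in the dye Cy5, where the negative controls were dimmer. Their 95th percentile on replicates 1, 2 and 3 was 199.9, 164.4 and 86.95 in Cy5, against 306.8, 347.85 and 339.95 in Cy3. These crossings thus do not compare phoxim with control.

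**Figure D1:**
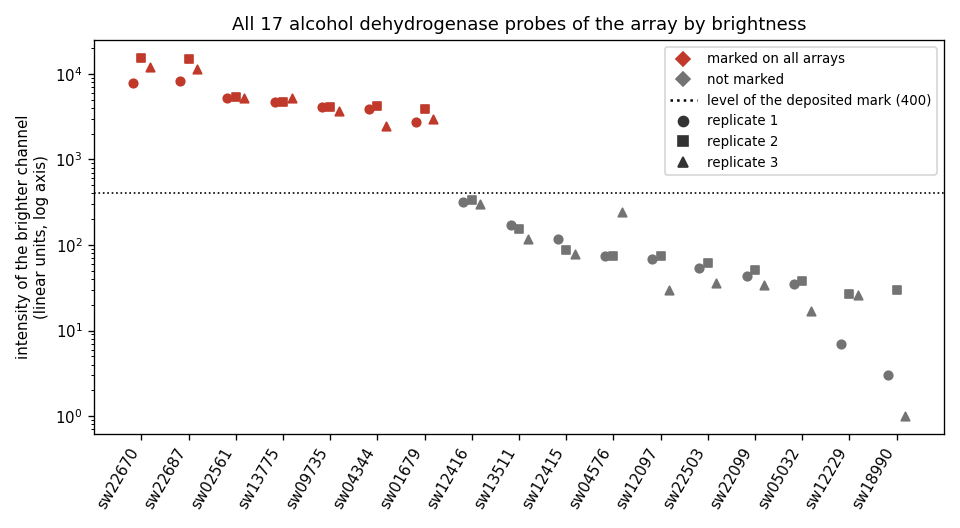
Intensity of the brighter channel (linear units on a log axis) for the 17 alcohol dehydrogenase probes on each array, with the mark level of 400 as a dotted line and values below 1 drawn at 1. The 7 members lie at 2426 or above and the other 10 probes at 335 or below; brightness of different probes does not rank their transcripts.

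Probes of similar best match fell on both sides of that gap. The honeybee protein matched by sw01679 was the best match of 4 probes, of which sw01679 alone was marked. The other honeybee protein was the best match of 7 probes, of which 3 were marked. Among the unmarked probes, sw12415 and sw12416 lay on a shared genomic scaffold, as did sw22503 with sw05032 and sw22099 (LOC732963) with sw12229. Both probes matched to alcohol dehydrogenases of C. capitata were unmarked.

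Which dye carried the treated RNA on replicate 2 is in dispute, which bears on every direction below. The series design and labels put treated RNA in Cy5 on all arrays, whereas in the file of replicate 2 the header assigns Cy5 to control and Cy3 to phoxim. The ratio on all 3 arrays is stated as phoxim over control in the headers, and these were followed. Across all 23229 gene probes, most of them dim, log2 ratios correlated with r = -0.47 between replicates 1 and 2, 0.42 between 1 and 3 and -0.45 between 2 and 3. Across the 3964 marked probes the values were 0.62, 0.18 and 0.26. Probes are not independent replicates. The direction of replicate 2 is thus not settled by the sources, and the members' means are also given with its sign turned.

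Of the 7 members, sw01679 was lower in phoxim-treated midguts and the 6 others did not pass the test. The test was limma on the deposited log2 ratio, two-sided, with Benjamini-Hochberg adjustment over the 3964 marked probes and a threshold of 0.05. Over all of these, 0.681% were called, 0.505% higher and 0.177% lower. The median of the members' mean log2 ratios was -0.13, beside 0.035 over all marked probes. In bulk tissue, fewer cells of a type and less RNA per cell cannot be told apart. The labels do not say whether the arrays drew on separate groups of larvae beyond the word replicate, so p-values measure the spread between these arrays.

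The probe sw01679, matched to a putative alcohol dehydrogenase of the honeybee, read 669, 818 and 600 in phoxim on replicates 1, 2 and 3. Its control intensities were 2721, 3857 and 2931. The groups did not overlap: the lowest control value was 3.33 times the highest phoxim value. Among the 3964 marked probes, 7.09% had all phoxim intensities below all control intensities and 8.4% had them above.

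The deposited log2 ratios of sw01679 were -1.97, -2.49 and -2.27, which is 25.6%, 17.9% and 20.7% of control. Their mean was -2.24 ± 0.26 (SD, n = 3), a level 4.73-fold lower in phoxim, with a 95% interval of 3.54-fold to 6.32-fold lower (adjusted p = 0.0068, limma). It was lower on 3 of 3 arrays and was the fourth lowest mean of the 3964 marked probes. A log2 ratio below -1 on all 3 arrays was found for 0.177% of them. The plain quotients of the intensities, before the authors' normalization, were -2.02, -2.24 and -2.29 on the log2 scale.

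The call of sw01679 was lost under 5 of 14 alternative settings. The 14 include the series' deposited table, whose ratios are the same, so its result was fixed in advance. Without replicate 2 the mean was -2.12 (adjusted p = 0.096, limma), with scaling between arrays -2.26 (adjusted p = 0.054), with a term for dye orientation -2.30 (adjusted p = 0.060) and with all 23229 gene probes kept -2.24 (adjusted p = 0.9997). With the sign of replicate 2 turned, the mean was -0.58, with a 95% interval of -3.09 to 1.92 (adjusted p = 0.9993, limma), since replicate 2 then opposed replicates 1 and 3.

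**Figure D2:**
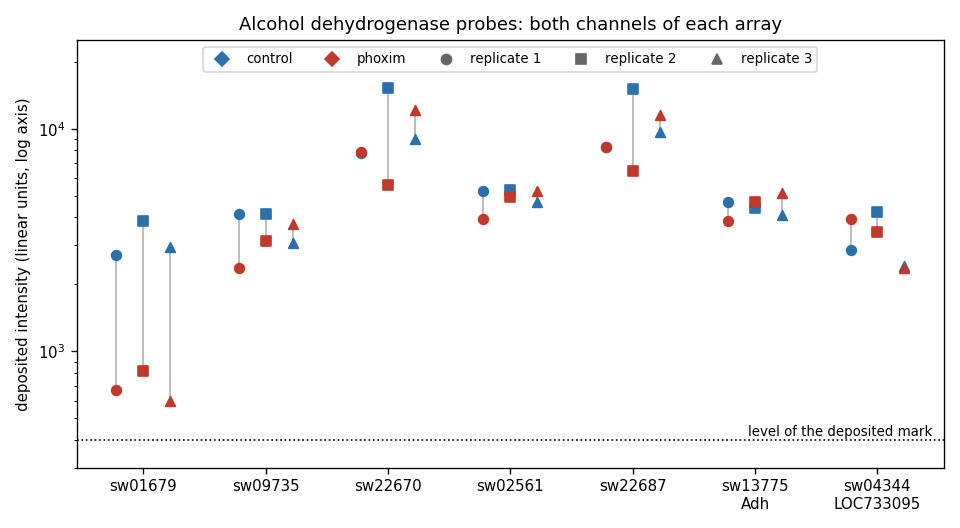
Deposited intensities (linear units on a log axis) of the 7 members in the phoxim and control channels, 1 symbol per array, each array's pair joined by a line. For sw01679 the phoxim values of 600 to 818 lie below the control values of 2721 to 3857, while the channels of the 6 other probes overlap.

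The probes that share 2 gene models, sw22670 and sw22687, gave similar values on each array. For sw22670 the phoxim intensities were 7888, 5585 and 12127 and the control intensities 7745, 15257 and 9032. For sw22687 they were 8260, 6466 and 11515 in phoxim and 8275, 15038 and 9682 in control. The groups overlapped for both probes, and replicate 2 held both the highest control and the lowest phoxim value of each. By the header, control was in Cy5 and phoxim in Cy3 on replicate 2, the reverse of the other arrays. Intensities before normalization thus compare unlike dyes there.

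For this pair, plain quotients and deposited ratios differed most on replicate 2. Its plain log2 quotients were -1.45 for sw22670 and -1.22 for sw22687, and its deposited log2 ratios -0.39 and -0.46. On replicates 1 and 3 the deposited log2 ratios were -0.32 and 0.07 for sw22670 and -0.12 and 0.24 for sw22687. The means were -0.21 ± 0.25 (95% interval -0.63 to 0.20, adjusted p = 0.56, limma) and -0.11 ± 0.35 (95% interval -0.56 to 0.34, adjusted p = 0.80, limma; SD, n = 3). The difference between these probes, sw22670 minus sw22687, was -0.10 ± 0.15 over the arrays (SD, n = 3), smaller than the spread of either probe. With replicate 2 turned, the means were 0.05 and 0.19.

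The silkworm gene Adh was measured by sw13775, whose files describe it as a putative alcohol dehydrogenase. Its intensities were 3845, 4706 and 5156 in phoxim and 4672, 4408 and 4116 in control, and the groups overlapped. The log2 ratios were -0.29, 0.31 and 0.35, lower on replicate 1 and higher on the others. The mean was 0.13 ± 0.36 (SD, n = 3, 95% interval -0.33 to 0.58, adjusted p = 0.77, limma), or -0.08 with replicate 2 turned. With 1 array left out it lay between 0.012, without replicate 3, and 0.33, without replicate 1.

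The class III enzyme LOC733095, measured by sw04344, had the highest mean of the 7. Class III enzymes clear formaldehyde and are found across animals. Its intensities were 3924, 3448 and 2368 in phoxim and 2847, 4211 and 2426 in control, again overlapping. The log2 ratios were 0.45, 0.06 and -0.01, so that replicate 1 carried most of the mean of 0.17 ± 0.25 (SD, n = 3, 95% interval -0.25 to 0.58, adjusted p = 0.65, limma). Without replicate 1 the mean was 0.025, and with replicate 2 turned it was 0.13.

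The iron-containing family was represented by sw02561 and sw09735, which share a tag. For sw02561 the intensities were 3917, 4931 and 5235 in phoxim and 5268, 5317 and 4673 in control. For sw09735 they were 2357, 3117 and 3721 in phoxim and 4128, 4136 and 3072 in control. On both probes replicate 1 was the lowest in phoxim, and the groups overlapped.

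The log2 ratios were -0.59, 0.10 and 0.11 for sw02561 and -0.79, -0.28 and 0.33 for sw09735. The latter spanned 1.12 between arrays, the widest range of the 7. The means were -0.13 ± 0.40 (95% interval -0.60 to 0.35, adjusted p = 0.77, limma) and -0.25 ± 0.56 (95% interval -0.81 to 0.31, adjusted p = 0.62, limma; SD, n = 3). The difference, sw02561 minus sw09735, was 0.12 ± 0.31 (SD, n = 3). Without replicate 1 the means were 0.10 and 0.025, and with replicate 2 turned -0.19 and -0.06.

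**Figure D3:**
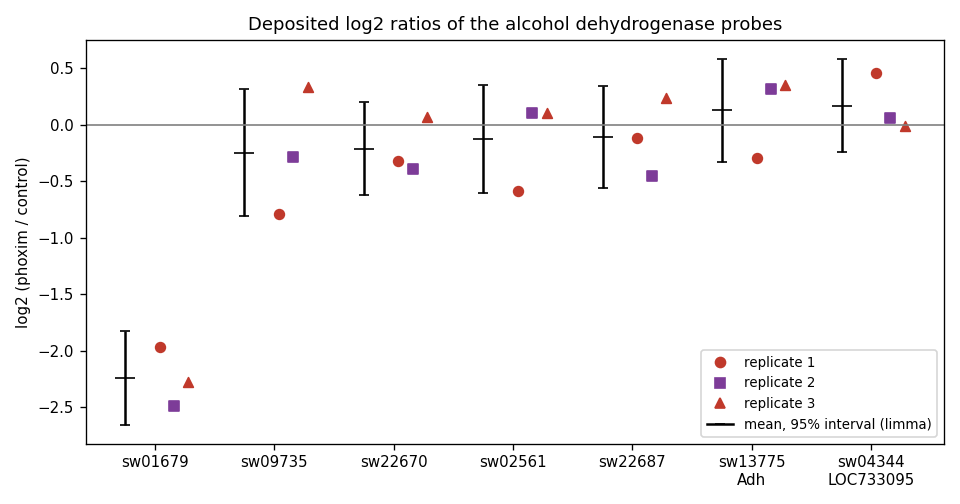
Deposited log2 ratio of phoxim over control for each of the 7 members, 1 symbol per array (replicate 2 in purple, its dyes being in dispute), with the mean and 95% interval from limma as a black bar. The values of sw01679 lie between -2.49 and -1.97; the other 6 lie between -0.79 and 0.45 and their intervals include 0.

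Each of the 6 other members had a 95% interval that included 0. The lowest bound was -0.81, for sw09735, and the highest 0.58, for sw13775 and sw04344, and each probe's own interval sets which changes could not be told from none. Their single log2 ratios ranged from -0.79 to 0.45, and none of the 6 kept 1 sign on all 3 arrays. By comparison, 14.3% of the marked probes were below 0 on all 3 arrays and 23.0% above. Their SDs ran from 0.25 to 0.56, beside a median SD of 0.29 over all marked probes.

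The 6 also differed between arrays as a group. Their median log2 ratio was -0.31 on replicate 1, -0.11 on replicate 2 and 0.17 on replicate 3, with 5, 3 and 1 of the 6 below 0. Some of the 6 share gene models or tags. Medians of all marked probes were 0.05, 0.05 and 0.04. A rise over the arrays was not particular to the 6. Among the related lists described below, aldehyde dehydrogenases had medians of -0.27, -0.15 and 0.03 and short-chain dehydrogenases -0.51, -0.14 and -0.10. Aldo-keto reductases (-0.50, -0.96 and 0.22) and the single esterase D and glucose dehydrogenase probes did not keep that order. The log2 ratio of sw01679 minus the median of the 6 gave -1.66 on replicate 1, -2.37 on replicate 2 and -2.45 on replicate 3. This gap has no test, since sw01679 was chosen with its ratio known.

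On the array, sw01679 was spotted in block 35, as were sw09735 and sw13775. The 84 marked probes of that block had median log2 ratios of -0.05, -0.00075 and 0.05 on the 3 arrays. Centring each block, which was added once the values were known, left the mean of sw01679 at -2.24 (adjusted p = 0.0095, limma).

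**Figure D4:**
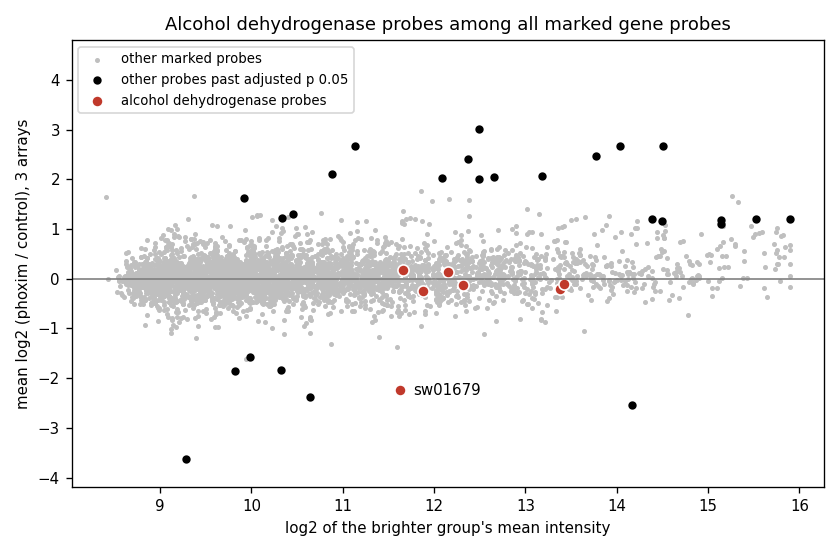
Mean log2 ratio of phoxim over control on 3 arrays against log2 of the brighter group's mean intensity for the 3964 marked gene probes, with called probes in black and the 7 members in red. At -2.24, sw01679 lies apart from the 6 other members, which lie between -0.25 and 0.17.

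Fat body markers were higher in phoxim in the same samples. Of 16 marked fat body probes, drawn by name (30K proteins, storage proteins, arylphorins and the like), 10 rose and 0 fell past the threshold. Over all marked probes, 0.505% rose and 0.177% fell. Of the 16 means, 14 were above 0 and 2 below, with a median of 2.06. With a dye term or replicate 2 turned, no probe of any list was called. The 39 fat body probes on the array summed to 40938 to 201910 in phoxim and 16769 to 51326 in control. Of 33 muscle probes, a list that includes non-muscle myosins, none passed (median 0.45, sums of 142480 to 179692 and 105479 to 133412 over 93 probes). Of 4 haemocyte probes 1 rose (median 1.00), and 28 such probes summed to 6725 to 7064 and 2941 to 6371, with 1 probe at 0 or below throughout. Of 60 midgut probes (peptidases, peritrophic proteins and proton pump subunits by name), 3 rose and 1 fell (median 0.10), and 146 such probes summed to 642373 to 848305 in phoxim and 568118 to 796059 in control. None of 5 cuticle probes passed (median 0.12, sums of 22011 to 26049 and 13982 to 35169 over 89 probes). None of 10 silk gland probes was marked, and they summed to 933 to 1686 and 838 to 1245. These sums are of intensities before normalization. Within each array, fat body, muscle and haemocyte sums were higher in phoxim. For fat body they were 73099, 40938 and 201910 in phoxim against 19601, 16769 and 51326 in control. Sums of midgut, cuticle and silk gland probes went both ways. For midgut they were 745948, 642373 and 848305 against 568118, 796059 and 680365. The lower value in phoxim was on replicate 2, where the header puts phoxim in Cy3. The part of these tissues in the difference of sw01679 was not tested.

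Enzymes that share substrates, products or structure with alcohol dehydrogenases were drawn by name in 9 lists, and 0 of their 31 marked probes passed the test. At an unadjusted p below 0.05 there were 8, of which 5 were lower, against 603 of all 3964 marked probes (15.2%, limma). Of the 31, 21 had a mean below 0, beside 45.5% of all marked probes, and their median was -0.12. Without replicate 3, 6 of the 31 passed, as did 470 probes in all.

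Aldehyde dehydrogenases take the product of alcohol dehydrogenases on to the acid. Their 7 marked probes, of 19, had a median of -0.19, which was -0.00070 without replicate 1 and -0.39 without replicate 3. The mitochondrial enzyme LOC733015 read -0.27, -0.58 and -0.25 (adjusted p = 0.35, limma), the same sign on all arrays. The probe sw11744, matched to methylmalonate semialdehyde dehydrogenase, which works in valine breakdown, had a mean of 0.27 ± 0.47 (SD, n = 3).

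Aldehyde oxidases, molybdenum enzymes that also oxidise aldehydes, went both ways. Of 3 marked probes of 17, sw20507 read -0.76, -1.89 and -0.85 and sw21227 read 0.27, 0.54 and 0.48, both matched to the same mosquito enzyme. Their means were -1.16 ± 0.63 (adjusted p = 0.11, limma) and 0.43 ± 0.14 (adjusted p = 0.29, limma; SD, n = 3). Neither passed, although each kept its sign on 3 arrays. The third probe, of xanthine dehydrogenase (Xdh1), read 0.21, 0.27 and 0.30 (adjusted p = 0.44, limma). Its mean of 0.26 is the median of this list, which was drawn by both names.

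Short-chain dehydrogenases, a large family that includes the alcohol dehydrogenase of Drosophila, had 13 marked probes of 30 and a median of -0.12. Of the 13, 10 had a mean below 0. The probe sw18213, matched to a carbonyl reductase, which reduces ketones and quinones, read 0.69, 0.76 and 1.22 (mean 0.89 ± 0.29, SD, n = 3, adjusted p = 0.095, limma). The probe sw22643, matched to the moth enzyme 3-dehydroecdysone 3alpha-reductase, which acts on an oxidised form of the moulting hormone, read -1.61, -0.93 and -0.59 (mean -1.04 ± 0.52, SD, n = 3, adjusted p = 0.11, limma). Of the 4 other marked probes with that match, sw22644 had a mean of -1.10, and sw21851, sw04453 and sw19113 had means of -0.12, -0.04 and 0.21.

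The list of aldo-keto reductases, which reduce aldehydes to alcohols, was drawn by name and had 3 marked probes of 16. The probe sw18815, matched to an aldose reductase, had a mean of 0.64 ± 0.42, and sw17644, matched to a mosquito aldo/keto reductase, -0.53 ± 0.41 (SD, n = 3). The third, sw00440, matched a myo-inositol oxygenase listed with an aldehyde reductase synonym, and read -1.42, -1.46 and 0.22 (mean -0.89 ± 0.96, SD, n = 3, adjusted p = 0.29, limma). The median of the 3 means, sw00440 included, was -0.53, or 0.11 with replicate 2 turned. The means of sw18815 and sw17644 had opposite signs, so the list gives no direction for the family. Among other medium-chain dehydrogenases, 2 probes matched to sorbitol dehydrogenase were marked, sw22553 at -0.76 ± 1.01 and sw19739 at 0.13 ± 0.16 (SD, n = 3).

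The remaining lists held 1 marked probe or none. The esterase D probe sw15011, whose enzyme follows the class III enzyme in formaldehyde removal, read -0.24, -0.06 and -0.17. The glucose dehydrogenase probe sw02429 had a mean of 0.28 ± 0.44 (SD, n = 3). Catalase (Cat), which removes hydrogen peroxide and can oxidise ethanol, read -1.25, 0.14 and 0.86, so its arrays disagreed in sign. No probe of the acetate route was marked, of 3.

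**Figure D5:**
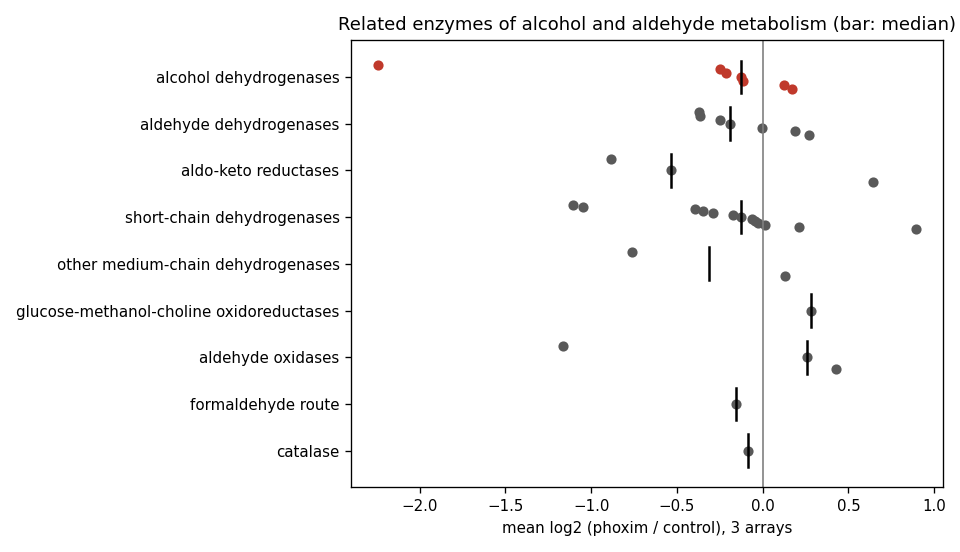
Mean log2 ratio of phoxim over control on 3 arrays for the 7 alcohol dehydrogenase members (red) and the marked probes of 8 related lists (grey), with the median of each list as a bar. No related probe reaches the -2.24 of sw01679; the lowest, sw20507, lies at -1.16.

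The probes whose 3 log2 ratios lay nearest to those of sw01679 were sought by Euclidean distance among 2720 marked probes with an informative description. Of all marked probes, 3 without such a description were nearer. The nearest with one was the trypsin probe sw02096 (-1.49, -3.36 and -2.79, distance 1.13), followed by sw20866, matched to an acyl-CoA desaturase (-1.65, -1.30 and -1.75, distance 1.33). In phoxim, sw20866 exceeded the negative controls on 2 of 3 arrays, so its ratio on the other array rests on a channel not above them. The trypsin-like probes sw08448 and sw17483, with distances of 1.61 and 1.72, and the aldehyde oxidase probe sw20507, with 1.96, completed the 5. The distance rests on 3 arrays and describes likeness of ratios alone.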

How the data were processed

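Per the file headers, each spot has an intensity in Cy5 and in Cy3, linear, and a deposited ratio, phoxim divided by control. RNA was amplified and labelled with Cy3 or Cy5, per the labels' protocols. No separate background column is used. The sources used here name no scanner, software or way of normalizing. Log2 values in the series' deposited table matched log2 of that ratio on 24288 spots (largest difference 4.9e-09), with medians of 0.040, -0.021 and 0.016, so scale, centring and direction are those of that ratio.

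Control spots were left out. The log2 ratio of the 3964 marked probes went into an intercept fit (lmFit, eBayes; limma 3.58.1, R 4.3.3), tested on simulated data, and the deposited ratio was not normalized again. Probe groups are described per probe. The number of arrays limits the precision. Alternatives covered centring, scaling, renormalized intensities (offset 50, loess), filters, an intensity trend, the series' deposited table, the dyes and each array left out. Members and lists were chosen with earlier results of these data known. The text names all members, the probe with the smallest p in each direction of each related list, and the 5 nearest to sw01679. Unmarked family probes, sw00440, Xdh1 and the other 3-dehydroecdysone reductase probes are named too, chosen after their values were seen. Names are from the files; the reference gene table (ASM3026992v2) was used for gene identifiers alone.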

Additional observations from a re-analysis of the deposited data

How the results depend on the processing

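Among 14 alternatives, the series' deposited table holds the same ratios, so its result was fixed in advance. Under the 14, sw01679 stayed below 0 in all and past the threshold in 9. It did not pass, and no alcohol dehydrogenase probe was called (0 in place of 1), with scaling between arrays (-2.26), all gene probes kept (-2.24), a dye term (-2.30) or replicate 2 turned (-0.58); with 1 replicate left out the mean was -2.38 to -2.12 and the count 0 to 1, the 0 being without replicate 2. Adjusted p ranged from 0.0023 to 0.9997. Calls over all marked probes (27 of 3964) were 1 with scaling and 16 of 3215 with both channels above the mark level. In limma, calls were 0 with all gene probes, replicate 2 turned or a dye term. At an unadjusted p below 0.05 these gave 450 of 23229, 29 of 3964 and 348 of 3964 probes. With 1 replicate left out, calls over all marked probes were 4 to 470 and those among related enzymes 0 to 6. Of 84 alternative values of the 6 other members, 78 kept their direction, and none passed. The changed filters, an intensity trend in the fit and the series' deposited table left each probe's ratios unchanged. Directions under these settings, that of sw01679 included, were fixed in advance. Since the ratio of sw01679 was below 0 on every array, leaving 1 replicate out or scaling could not turn its mean either. Its mean with replicate 2 turned follows from the same ratios. That sw01679 stayed below 0 under these settings is therefore no further evidence. With 1 replicate left out, the means were -0.25 to 0.10 for sw02561, -0.54 to 0.025 for sw09735 and -0.29 to 0.061 for sw22687, 0.012 to 0.33 for sw13775, -0.35 to -0.12 for sw22670 and 0.025 to 0.26 for sw04344; with replicate 2 turned, sw13775 was at -0.084, sw22670 at 0.047 and sw22687 at 0.19. With all gene probes kept, more probes were tested and the 95% interval of sw01679 also widened, to -3.05 to -1.44; the share of each in the lost call was not tested, nor was the cause under the other settings. The fit on ratios within an array already pairs treated with control RNA. A further replicate block cannot be added to 1 group of ratios. Of 110 list medians 105 moved by less than the spread between arrays, and the 5 others moved further. Those were aldehyde dehydrogenases without replicate 1 (-0.00070) or 3 (-0.39), and aldo-keto reductases with replicate 2 turned (0.11). They also include the aldehyde oxidase median, that of the xanthine dehydrogenase probe Xdh1, with median centring (0.22) or replicate 2 turned (0.081). With an intensity trend, the series' deposited table or all gene probes kept, no list median could move. In a list of 1 marked probe, leaving 1 replicate out cannot move the mean by more than its SD. Catalase, such a list, was counted as moving by less than the spread, although it ran from -0.56 to 0.50 with 1 replicate left out.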

Other observations

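Of the 10 unmarked alcohol dehydrogenase probes, 4 had a Cy5 intensity of 0 on all 3 arrays: sw22099, sw05032, sw12229 and sw18990. Their deposited log2 ratios were above 0 on replicate 1 and below 0 on replicate 2 for all 4. For sw05032 they were 1.60, -1.70 and 2.09, from Cy3 intensities of 35, 38 and 17. For sw18990 they were 9.09, -1.97 and -0.13, from Cy3 intensities of 3, 30 and -6. These values stand on channels at 0. They entered the correlations over all gene probes and the alternative that kept all gene probes.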
